A study of Homo sapiens with 2 samples.

Results

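Integrin subunits and laminin chains were compared between HCT116 cells, a human colorectal carcinoma line, with wild-type CREB1 and KO-CREB1 cells, a clone of that line without CREB1. CREB1 is a nuclear factor that switches on genes with cAMP response elements in their promoters. Per the labels' protocols, the clone was grown from a lone cell after treatment with a plasmid carrying nickase Cas9 and guides against CREB1, so it stands for 1 clone. Both cultures grew in DMEM with serum and antibiotics, and ribosomal RNA was removed before strand-specific sequencing of total RNA. Each genotype had 1 library, with 34511071 wild-type and 31178312 knockout expected counts. An expected count is an estimate of the reads of a gene, which need not be whole. The gene set was chosen by symbol as 16 integrin alpha subunits, 8 integrin beta subunits and 11 laminin chains, and all 35 symbols matched 1 of the 57820 gene identifiers. Of these 35 genes, 22 had a mean CPM (counts scaled to library depth, here by the TMM method) of at least 1 over the libraries and are called expressed below, as were 12886 genes in all. Members held 0.0954% of wild-type counts and 0.117% of knockout counts.

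Integrins are receptors made of 1 alpha and 1 beta subunit that hold cells to the extracellular matrix and link it to the cytoskeleton. Laminins are trimers of an alpha, a beta and a gamma chain and form the sheet of the basement membrane under epithelia. In the intestinal epithelium, the receptors made of ITGA6 with ITGB4 and of ITGA3 with ITGB1 are known for holding cells to laminin, and the trimer with LAMA3 and LAMB3 is the laminin of hemidesmosomes.

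CREB1 itself had 614 wild-type and 499 knockout counts (18.3 and 15.6 CPM). Its mRNA count does not check the genotype label, since a small insertion or deletion leaves transcripts to be counted. Of 10 colon epithelium markers, 6 were expressed, and EPCAM and CDH1 were among them. The markers summed to 4019 and 3521 CPM, most of it from the keratins KRT8, KRT18 and KRT19. CDX1 was at 0 in both libraries, VIL1 had 12 and 9 counts, KRT20 39 and 19, and CDH17 2 and 1, all under the expression limit. Leukocyte markers summed to 5.26 wild-type and 4.32 knockout CPM, most of it CORO1A, and PTPRC, CD3E, CD2 and SPI1 were at 0 in both. Fibroblast markers summed to 5.53 and 5.85 CPM, from COL1A1 and ACTA2 in the main, and endothelial markers to 3.48 and 3.47 CPM.

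Differences were found in both families. Among the laminin chains, LAMB1 and LAMA5 were higher in the knockout library, by 1.76-fold and 1.57-fold, and LAMB3 was lower by 1.74-fold, while LAMA4 went from a low level to near its detection limit. Among the integrin subunits, ITGA9 was 2.19-fold lower at a level near 1 CPM, and ITGA2, ITGAV, ITGB5, ITGA3, ITGB1 and ITGA5 were between 15.1% and 36.5% higher. Ratios as far from 0 as those of these higher integrins, or farther, were common, from 18.6% (ITGA2) to 50.5% (ITGA5) of all expressed genes. ITGA6 and ITGB4 were within 2% of their wild-type levels, both slightly below 0 on the log2 scale and both slightly above it (0.05 and 0.07) with total-count scaling. Each of these comparisons rests on 1 library per genotype, so they have no replicate check and no p-value is given. In RNA from a whole culture, fewer cells with a transcript and less of it per cell cannot be told apart. The intervals below are exact 95% intervals of the ratio of 2 counts and cover counting error only, not the variation between cultures, clones or library preparations.

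Among the 22 expressed members, 0 were at least 2-fold higher and 1, ITGA9, was at least 2-fold lower with an interval that excluded no difference. By this rule 1.28% of all expressed genes were higher and 1.64% lower, 2.92% together. At 1.5-fold, 2 members were higher and 2 lower, beside 5.25% and 5.5% of all expressed genes, 10.8% together. At any size, the interval lay above 0 for 10 members and below 0 for 2 and included 0 for the other 10, beside 26.4% above and 25.5% below among all expressed genes. The median log2 ratio, knockout over wild-type, was 0.17 over the members and 0.01 over all expressed genes. Log2 ratios lay above 0 for 14 members and below 0 for 8, and for 51.2% of all expressed genes.

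**Figure D1:**
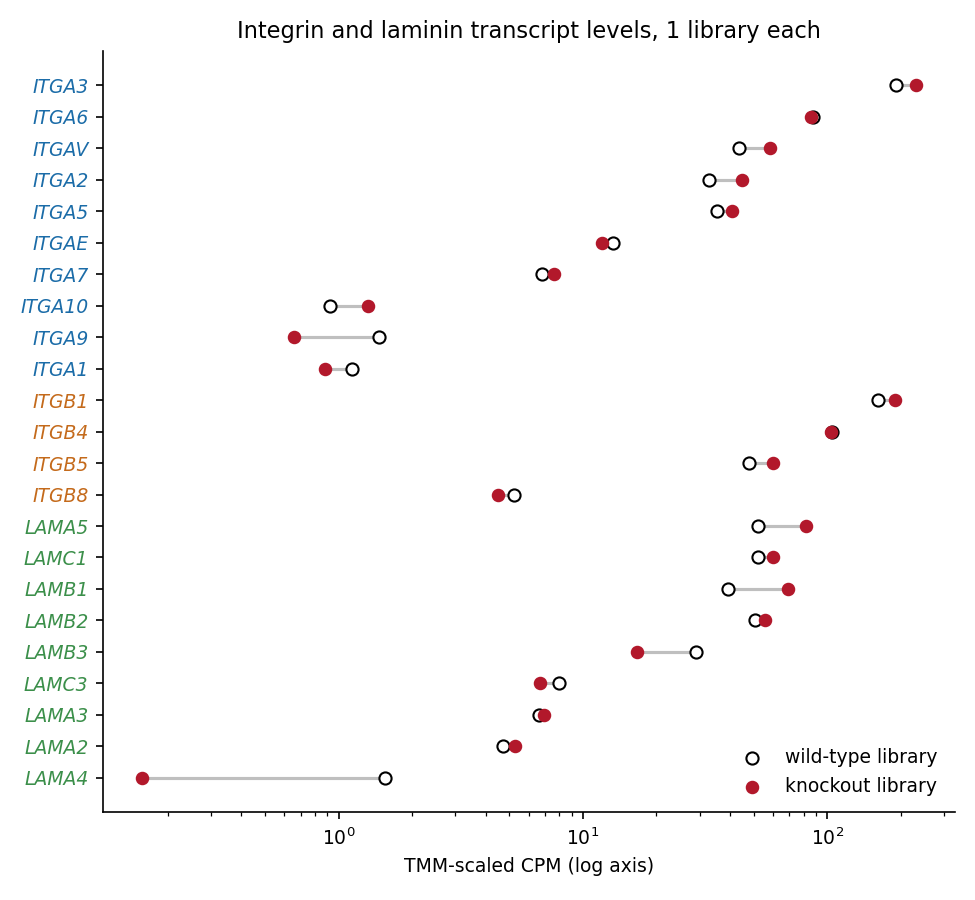
Level of each expressed member and of LAMA4 in the wild-type (open) and knockout library (red), in TMM-scaled CPM on a log axis, with 1 library per genotype. Name colours mark integrin alpha (blue), integrin beta (orange) and laminin genes (green). LAMB1 and LAMA5 moved to the right and LAMB3, ITGA9 and LAMA4 to the left, while the points of ITGA6 and ITGB4 lie on each other.

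**Figure D2:**
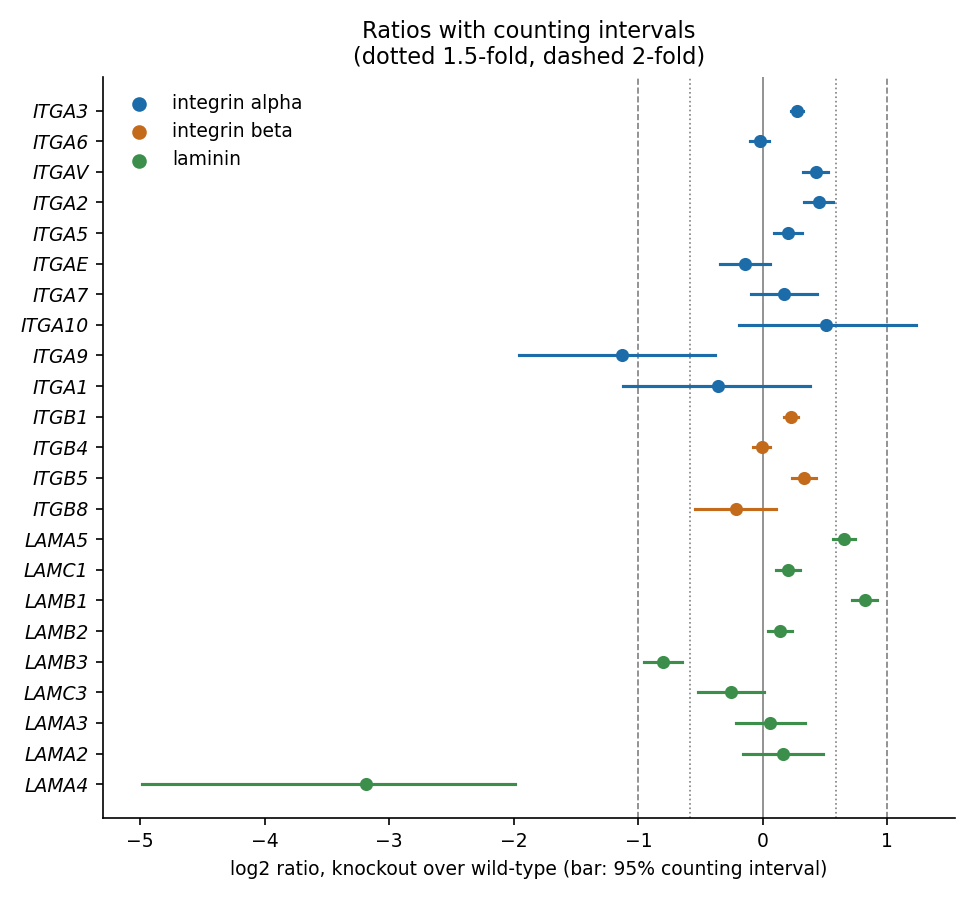
Log2 ratio, knockout over wild-type, of the same genes (points) with its exact 95% counting interval (bars). Dotted lines mark 1.5-fold and dashed lines 2-fold. The bars are narrow for genes with many counts, such as ITGA3, and wide for ITGA9, ITGA10, ITGA1 and LAMA4.

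LAMB1 (ENSG00000091136.9, chromosome 7), the beta chain of the common laminins of many tissues, had 1324 wild-type and 2219 knockout counts (39.4 and 69.4 CPM). The log2 ratio was 0.82, with an interval of 0.72 to 0.92, and among expressed genes 4.89% had a ratio as far from 0 or farther. LAMA5 (ENSG00000130702.9, chromosome 20), the main laminin alpha chain of adult epithelial basement membranes, had 1749 and 2615 counts (52.0 and 81.8 CPM), with a log2 ratio of 0.65 and an interval of 0.57 to 0.74. LAMC1 is the gamma chain that joins these chains in most laminin trimers. It had 1757 and 1920 counts (52.2 and 60.0 CPM), with a log2 ratio of 0.20 (interval 0.11 to 0.30). LAMB2, which can take the place of LAMB1 in a trimer, had 1707 and 1782 counts and a log2 ratio of 0.14 (interval 0.04 to 0.23). Thus these 4 chains all had intervals above 0, but the ratios of LAMB1 and LAMA5 were the larger ones. For LAMA5, LAMC1 and LAMB2, 8.47%, 50.8% and 64.7% of expressed genes had a ratio as far from 0 or farther.

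LAMB3 (ENSG00000196878.8, chromosome 1), the beta chain of the hemidesmosome laminin, had 980 wild-type and 534 knockout counts (29.1 and 16.7 CPM). Its log2 ratio was -0.80, with an interval of -0.96 to -0.65, opposite in sign to that of LAMB1. LAMA3, the alpha chain of the same trimer, was not lower with it. It had 223 and 221 counts (6.63 and 6.91 CPM) and a log2 ratio of 0.06, with an interval of -0.21 to 0.34. Scaling does not enter a ratio of 2 genes within 1 library. The count of LAMB1 was 1.35 times that of LAMB3 in wild-type cells and 4.16 times that in the knockout clone, a change of 3.08-fold (exact 95% interval 2.71 to 3.49, counting error only). These 2 genes had the highest and lowest log2 ratios of the expressed laminin chains. Their pair restates those ratios and is not separate support for them. The ratio of LAMA5 to LAMA3 counts changed by 1.51-fold (1.23 to 1.84).

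LAMA4, an alpha chain best known from blood vessels, muscle and nerve, had 52 wild-type and 5 knockout counts (1.55 and 0.156 CPM). Its log2 ratio was -3.19 with an interval of -4.99 to -1.99. Its mean of 0.851 CPM is under the limit for expressed genes, so it is not among the called genes above. Without that limit, LAMA4 and ITGB7 joined ITGA9, and 3 members were at least 2-fold lower, beside 2.73% of the 23251 genes with any count, of which 1.94% were higher and 4.67% were called in either direction. LAMA2, the alpha chain of muscle laminin, had 159 and 169 counts, and LAMC3, a gamma chain of narrower expression, had 269 and 214. The intervals of both included 0 (-0.16 to 0.48 and -0.52 to 0.01). LAMA1, an alpha chain of early embryonic basement membranes, had 4 and 0 counts, and LAMB4 had 0 in both libraries.

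Levels of different genes can be compared after division by length, here as CPM per kilobase of exon in GENCODE release 29. On that scale LAMA5 held 77.6% (wild-type) and 85.2% (knockout) of the summed laminin alpha level. Among the beta chains, the wild-type library had 7.39 CPM per kilobase for LAMB2, 6.21 for LAMB3 and 4.83 for LAMB1. The knockout library had 8.12 for LAMB2, 3.56 for LAMB3 and 8.53 for LAMB1. With this length LAMB3 was above LAMB1 in the wild-type library and below it in the knockout library. With the longest transcript as length the wild-type levels were nearly equal, 6.82 for LAMB1 and 6.77 for LAMB3, so their wild-type order depends on the length used. By exon length, LAMB1 made up 26.2% (wild-type) and 42.2% (knockout) of the beta chain level, and LAMB3 33.7% and 17.6%. Of the gamma chains LAMC1 and LAMC3, LAMC1 held 85.5% and 89.0%.

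**Figure D3:**
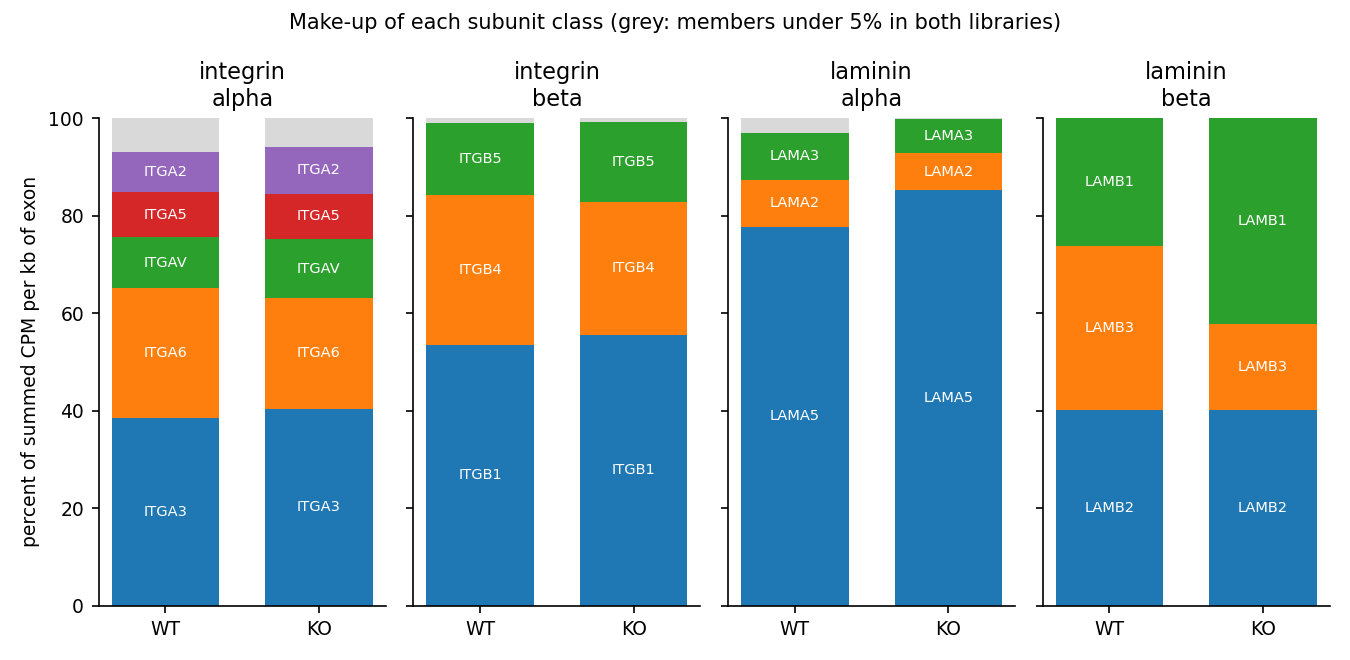
Share of each gene in the summed level of its subunit class, in percent of CPM per kilobase of exon, in the wild-type (WT) and knockout (KO) library. Grey stands for members under 5% in both libraries. The integrin bars are nearly alike, whereas in the laminin beta bars LAMB1 took 26.2% and 42.2% and LAMB3 33.7% and 17.6%.

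Promoter sequence was available for 25 of the 35 genes, from RefSeq on build GRCh38.p14, and the 250 bases before each listed start were searched on both strands. Those without an entry were ITGA3, ITGA7, ITGA9, ITGAL, ITGAX, ITGB2, ITGB3, ITGB4, LAMA1 and LAMC3. The full cAMP response element, TGACGTCA, was found in 0 of the 25 genes and in 2.03% of the 27305 genes with such a window. Its shorter form TGACG, which the full element contains, was found in 6 of the 25 (ITGA6, ITGA11, ITGB1, LAMA4, LAMA5 and LAMB3) and in 24.9% of all genes. The AP-1 motif TGAGTCA was added to the search after the values were seen and was found in LAMA3 and LAMB3, and in 5.19% of all genes. A match describes letters in this window and is not a binding site, and the absence of a match says nothing of the factor. The windows of the 4 laminin genes with the largest ratios among those whose interval excluded 0 follow, 5′ to 3′ on the gene's strand. They show which letters lie before the genes that were higher (LAMA5, LAMB1) and lower (LAMB3, LAMA4) in the knockout library. Capitals mark TGACG and TGAGTCA, or their reverse complements, and for LAMB3 the most downstream of 3 listed starts is shown.
LAMA5 (chr20:62367313-62367562, strand -): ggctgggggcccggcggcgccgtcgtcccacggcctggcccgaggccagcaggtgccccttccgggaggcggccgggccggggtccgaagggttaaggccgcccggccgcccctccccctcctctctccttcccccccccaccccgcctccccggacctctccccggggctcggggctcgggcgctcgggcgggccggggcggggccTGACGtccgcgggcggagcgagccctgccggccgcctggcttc
LAMB1 (chr7:108003162-108003411, strand -): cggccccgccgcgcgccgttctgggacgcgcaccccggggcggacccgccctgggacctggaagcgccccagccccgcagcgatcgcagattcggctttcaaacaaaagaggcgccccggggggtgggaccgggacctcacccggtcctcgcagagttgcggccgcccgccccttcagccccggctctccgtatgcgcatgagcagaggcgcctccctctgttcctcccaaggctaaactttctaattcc
LAMB3 (chr1:209651375-209651624, strand -): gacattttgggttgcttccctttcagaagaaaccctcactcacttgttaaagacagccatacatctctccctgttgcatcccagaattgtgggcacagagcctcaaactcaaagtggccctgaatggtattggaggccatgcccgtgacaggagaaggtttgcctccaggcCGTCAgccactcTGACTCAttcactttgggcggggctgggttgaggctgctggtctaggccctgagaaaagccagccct
LAMA4 (chr6:112254568-112254817, strand -): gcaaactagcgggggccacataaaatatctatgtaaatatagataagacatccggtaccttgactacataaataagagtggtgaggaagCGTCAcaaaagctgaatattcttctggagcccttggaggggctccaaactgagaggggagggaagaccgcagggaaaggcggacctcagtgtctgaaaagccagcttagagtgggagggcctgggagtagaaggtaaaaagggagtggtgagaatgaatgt
In these windows the first base of TGACG lay 43 bases before the start in LAMA5 and 161 before it in LAMA4, while LAMB1 held neither motif. In the LAMB3 window both motifs occurred, TGACG from base 79 and the AP-1 motif from base 67 before the start. The most upstream LAMB3 window held TGACG from bases 128 and 112. Neither that window nor the middle one held the AP-1 motif, and which start these cells use was not examined. In these windows TGACG occurred before genes with ratios of either sign, and its part in those ratios was not tested.

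Among the laminin-binding alpha subunits, ITGA3 (ENSG00000005884.13, chromosome 17) had the highest level of all integrin alpha genes. It had 6410 wild-type and 7383 knockout counts (190.5 and 230.9 CPM), with a log2 ratio of 0.28 and an interval of 0.23 to 0.33. ITGA6 (ENSG00000091409.10, chromosome 2), the partner of ITGB4 and also of ITGB1, had 2948 and 2754 counts (87.6 and 86.1 CPM). Its log2 ratio was -0.02 with an interval of -0.10 to 0.05. ITGA7, known as the laminin receptor subunit of muscle, was at 6.78 and 7.63 CPM, with an interval that included 0 (-0.10 to 0.44). The ratio of ITGA3 to ITGA6 counts was 2.17 in wild-type cells and 2.68 in the knockout clone, a change of 1.23-fold (1.16 to 1.31). Per kilobase, ITGA3 held 38.5% and 40.4% of the summed alpha level and ITGA6 26.6% and 22.6%.

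Of the collagen-binding alpha subunits, ITGA2 was the main one, with 1101 wild-type and 1428 knockout counts (32.7 and 44.7 CPM). Its log2 ratio of 0.45 (interval 0.33 to 0.56) was the largest of the integrin genes whose interval lay above 0. ITGA2 held 95.2% and 95.7% of the per-kilobase level of the collagen-binding subunits. ITGA1 and ITGA10 were near 1 CPM in both libraries, with 38.1 and 28.1 counts and with 31 and 42 counts, and both intervals included 0. ITGA11 had 1 and 0 counts.

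Among the subunits that recognise the RGD peptide of fibronectin and vitronectin, ITGAV had 1463 wild-type and 1865 knockout counts (43.5 and 58.3 CPM), with a log2 ratio of 0.42 and an interval of 0.32 to 0.52. ITGA5, the fibronectin receptor subunit, had 1186 and 1297 counts (35.3 and 40.6 CPM), with a log2 ratio of 0.20 (interval 0.09 to 0.32). Both were higher in the knockout library beyond counting error, and the ratio of ITGAV to ITGA5 counts changed by 1.17-fold (1.05 to 1.30). ITGA8 had 1 and 0 counts. ITGA9, whose receptor binds tenascin and other ligands, had 49 wild-type and 21 knockout counts (1.46 and 0.657 CPM). Its log2 ratio was -1.13 with an interval of -1.96 to -0.38, and it was the 1 member called at 2-fold. ITGA9 passed the expression limit narrowly, with a mean of 1.06 CPM, and only through the wild-type library. Its call is thus not independent of that limit. At a limit of 5 CPM 0 members were called.

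ITGB1 (ENSG00000150093.14, chromosome 10), the partner of most alpha subunits above, had 5439 wild-type and 6047 knockout expected counts (161.6 and 189.1 CPM), with a log2 ratio of 0.23 and an interval of 0.17 to 0.28. ITGB5, which pairs with ITGAV, had 1609 and 1925 counts (47.8 and 60.2 CPM) and a log2 ratio of 0.33 (interval 0.24 to 0.43). The ITGAV and ITGB5 ratios were thus of like sign and similar size. ITGB4 (ENSG00000132470.9, chromosome 17), the hemidesmosome subunit, had 3510 and 3318 counts (104.3 and 103.8 CPM). Its log2 ratio was -0.01 with an interval of -0.08 to 0.06, close to that of its partner ITGA6. Set against ITGB4 within each library, ITGB1 changed by 1.18-fold (1.11 to 1.25) and ITGB5 by 1.27-fold (1.17 to 1.37). ITGB8, another partner of ITGAV, had 175 and 143 counts and an interval of -0.55 to 0.11. Per kilobase, ITGB1 held 53.5% and 55.6% of the summed beta level, ITGB4 30.7% and 27.1%, and ITGB5 14.8% and 16.5%.

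**Figure D4:**
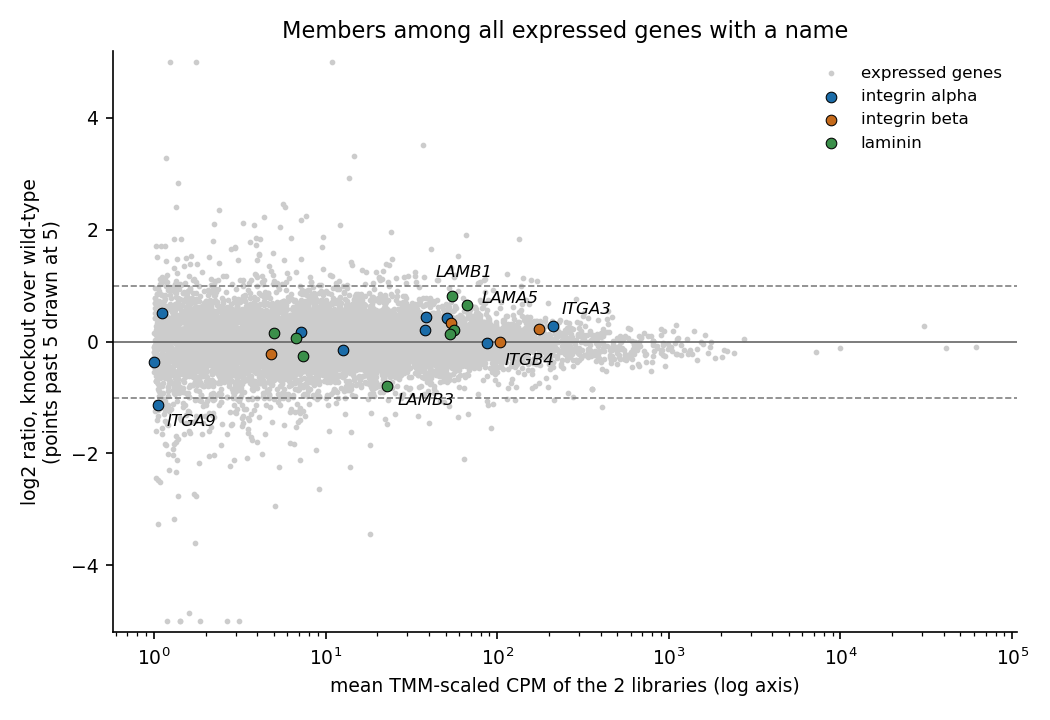
Log2 ratio, knockout over wild-type, against mean level in TMM-scaled CPM (log axis) for the 12622 expressed genes with a name (grey) and the 22 expressed members (coloured by class). Dashed lines mark 2-fold. The members lie within the cloud of all genes, with LAMB1 and LAMA5 toward its upper edge and LAMB3 toward its lower edge.

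Integrins of white blood cells were near or under detection. ITGAL, ITGAM, ITGAX and ITGB2 had between 1 and 15 counts in each library, ITGA4 had 0 in both, and a count of 0 allows up to 0.0892 CPM (wild-type) or 0.0938 CPM (knockout). ITGB7, a partner of ITGA4 and ITGAE, had 9 wild-type and 1 knockout counts, with an interval of -8.55 to -0.25. ITGAE, known from intraepithelial lymphocytes, was an exception with 446 and 384 counts (13.3 and 12.0 CPM, interval -0.34 to 0.06). ITGAE shares exon bases with HASPIN on the opposite strand, and whether HASPIN reads entered its count was not tested. ITGB6, an epithelial partner of ITGAV, had 9 and 16 counts, and ITGB3, known from platelets, 8 and 2. The intervals of both included 0. In all, 6 alpha subunits, 4 beta subunits and 3 laminin chains were under the expression limit.

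Genes that work with these receptors and ligands were counted by the same rules, from lists written with earlier results of these data known. Of 9 expressed basement membrane partners, 8 had log2 ratios above 0, beside 51.2% of all expressed genes, and the median was 0.35, beside 0.01. The heparan sulphate proteoglycan HSPG2, which laminin sheets bind, had 427 wild-type and 975 knockout counts (log2 ratio 1.26, interval 1.10 to 1.43). COL18A1, a basement membrane collagen, had 1722 and 3431 counts (log2 ratio 1.07, interval 0.98 to 1.15). With these 2 genes, 2 of 9 were at least 2-fold higher and 0 lower, beside 1.28% and 1.64% of all expressed genes. COL4A5 (0.70), COL4A4 (0.35) and COL4A3 (0.34), chains of the type IV collagen network, followed with intervals above 0. FRAS1 was the 1 partner below 0, at 1898 and 1468 counts. The usual type IV chains COL4A1 and COL4A2 and the linker NID1 had between 0 and 4 counts in each library.

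Of 6 expressed hemidesmosome and keratin genes, the 1 called at 2-fold was COL17A1, a transmembrane collagen of hemidesmosomes. It was lower, beside 1.64% of all expressed genes, with 227 wild-type and 106 knockout counts (log2 ratio -1.02, interval -1.37 to -0.69). The linkers DST and PLEC, which tie ITGB4 to keratin filaments, had log2 ratios of 0.68 (5080 and 7745 counts) and 0.56 (12013 and 16781 counts), and the keratin KRT18 had -0.26. The other 2 expressed genes of the list, the keratin KRT8 (-0.20) and the tetraspanin CD151 (-0.09), also had intervals below 0. In all, 2 of the 6 intervals lay above 0 and 4 below, beside 26.4% and 25.5% of all expressed genes, and the median was -0.15. Genes of this list thus differed in direction.

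Of 27 expressed linkers and kinases at the inner face of integrins, 21 had log2 ratios above 0, beside 51.2% of all expressed genes, and the median was 0.22, beside 0.01. TGFB1I1, a relative of paxillin, was the 1 gene called at 2-fold, higher, beside 1.28% of all expressed genes. It had 67 and 138 counts (log2 ratio 1.11, interval 0.68 to 1.56). PARVA, a partner of integrin-linked kinase, had a log2 ratio of 0.84 and the tensin TNS3 0.82, both at least 1.5-fold higher, while the kinase PTK2B had -0.98. Of the 27, 5 were at least 1.5-fold higher and 1 lower, beside 5.25% and 5.5% of all expressed genes.

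Of 18 other integrin ligands that were expressed, 2 were at least 2-fold higher and 2 lower, beside 1.28% and 1.64% of all expressed genes. Fibronectin FN1 had 319 wild-type and 741 knockout counts (log2 ratio 1.29), and the collagen COL3A1 had 7 and 69 (0.208 and 2.16 CPM). LTBP1, which holds latent TGF-beta in the matrix, had 239 and 84 counts (log2 ratio -1.43), and the fibrillin FBN1 had 51 and 19 (1.52 and 0.594 CPM). COL3A1 and FBN1 passed the mean limit of 1 CPM only through the library in which each was higher. Their calls are thus not independent of that limit. ICAM1, a ligand of white blood cell integrins, had a log2 ratio of -0.81, THBS1 of 0.57 and TGFB1 of 0.56. The median of this list was 0.17.

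Of 14 expressed laminin receptors outside the integrin family and their partners, UTRN, which links dystroglycan to actin, was the 1 gene called, higher, beside 1.28% of all expressed genes, with 951 and 1935 counts (log2 ratio 1.10, interval 0.99 to 1.21). BCAM, a receptor of LAMA5, had 253 wild-type and 469 knockout counts, with a log2 ratio of 0.96 and an interval of 0.74 to 1.19. DAG1, the dystroglycan gene, had 2290 and 2357 counts. SDC3, a syndecan, had a log2 ratio of 0.40. Of 16 expressed genes of integrin traffic, 0 were called at 2-fold, beside 2.92% of all expressed genes in either direction. NUMB (0.49), DAB2 (-0.47) and AP2A1 (0.46) were farthest from 0 among those whose interval excluded it. The medians of these lists were 0.10 and 0.03.

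**Figure D5:**
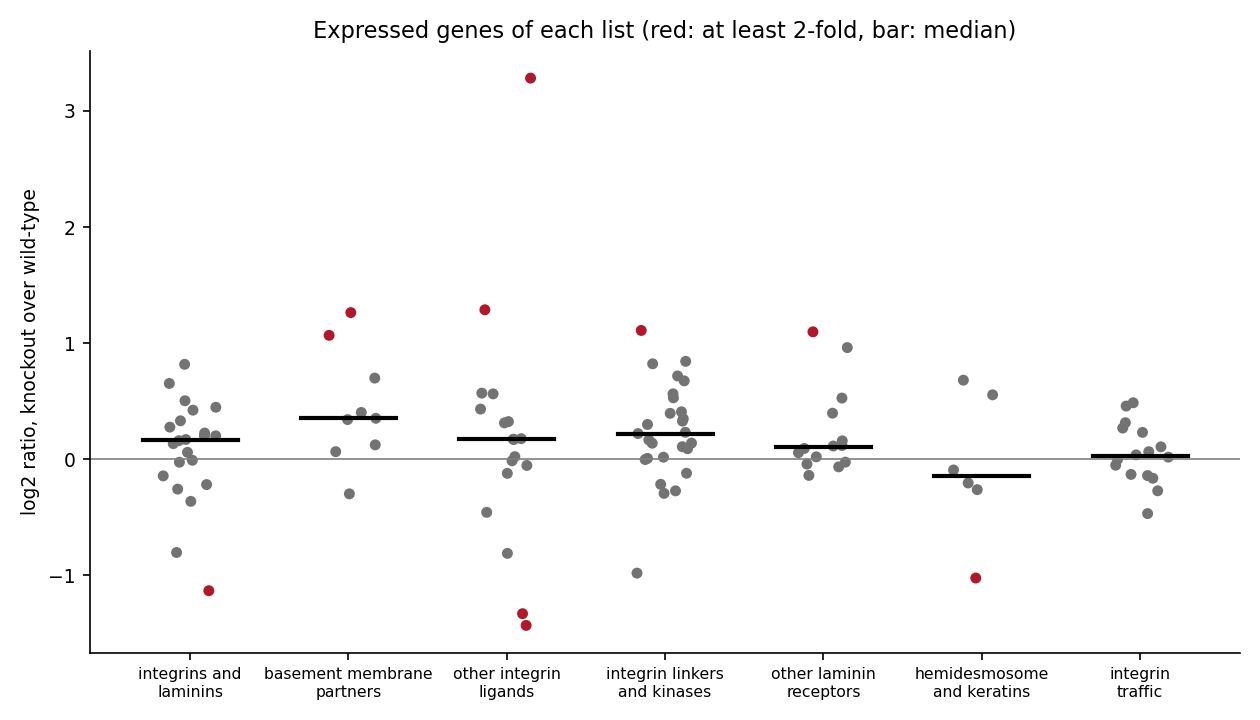
Log2 ratio, knockout over wild-type, of each expressed gene (points) in the integrin and laminin set and in 6 lists of partner genes, with the median of each (bar). Red points are called at 2-fold. The highest median is that of the basement membrane partners, 0.35, and the highest point is COL3A1.

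For each expressed member, the 20 nearest expressed protein-coding genes were taken in GRCh38 order, 10 on each side. Their median log2 ratio was -0.26 around LAMB3, -0.12 around LAMB1, -0.05 around LAMA5 and 0.03 around ITGB4. Of the 20 neighbours, 13 (LAMB3), 11 (LAMB1), 13 (LAMA5) and 8 (ITGB4) were below 0. Around the 6 higher integrins it was 0.14 (ITGB1), 0.11 (ITGAV), 0.10 (ITGA5), 0.04 (ITGB5), -0.02 (ITGA2) and -0.03 (ITGA3). Around ITGA9, LAMB2 and LAMC1 it was 0.13, 0.01 and -0.05. Around ITGB1 and ITGA5, 5 of 20 neighbours were below 0. The part of the neighbourhood in the ratio of LAMB3 or any other member was not tested. Whether reads were counted by strand is not stated in the labels, and 13 of the 22 expressed members share exon bases with a gene on the opposite strand. LAMA5 shares 244 bases with ADRM1 (4888 and 4174 counts) and LAMB1 70 bases with DLD (1452 and 1152 counts), and both of these neighbours had fewer counts in the knockout library. ITGA1 shares exon bases with PELO on the same strand, and its counts were fractional. RSEM, named in the submitters' notes, splits such shared reads between genes. The counts of ITGB1 were also fractional. Its only overlap was 42 bases with ITGB1-DT on the opposite strand (1 and 3 counts), and the source of its fraction was not examined. ITGB7 shares 1886 bases with ZNF740 (894 and 773 counts) and ITGAE 427 bases with HASPIN (582 and 507 counts), both on the opposite strand. The counts of ITGB7, ITGAE, LAMA5 and LAMB1 were whole numbers. Whether strand entered the counting was not tested.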

How the data were processed

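Values in the deposited table are expected counts of each gene, without scaling between libraries. RSEM 1.2.26, STAR 2.4.2a and cutadapt 2.0 are named in the submitters' processing notes, with build hg19. No annotation release, strand setting or filter is stated there. Each value column was assigned by its genotype name. Names, lengths and gene order came from GENCODE release 29 (GRCh38), where 52338 of 57820 identifiers (90.5%) matched without version.

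Counts were rounded and scaled by TMM in edgeR 4.0.16 (R 4.3.3) over the whole table. Log2 ratios used a prior count of 0.5. Intervals are Clopper-Pearson 95% intervals of the conditional binomial. A call needed a mean of at least 1 CPM, a 2-fold (or, where stated, 1.5-fold) ratio and an interval without 0. With 1 library per genotype, no p-value was computed. The rule was tested on simulated counts that held counting error only. That test says nothing of variation between cultures, clones or library preparations. The members and lists were chosen with earlier results of these data known. Every member is accounted for. Of each partner list, genes called at 2-fold and up to 3 others with the largest ratios are named, where their interval excluded 0. A list gene that this rule selects is not reported here. Other genes named (FRAS1, COL4A1, COL4A2, NID1, DAG1, and those in the marker, overlap and position paragraphs) were chosen after their values were seen. The pairs of genes set against each other within a library were not planned beforehand. Alternatives were total-count, DESeq2 1.42.0 and upper-quartile scaling, other gene sets for TMM, a prior count of 2, other expression limits, unrounded counts and another gene length.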

Additional observations from a re-analysis of the deposited data

How the results depend on the processing

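The 2 higher members at 1.5-fold, and the 0 higher at 2-fold, stayed at these numbers under each alternative run. With no limit on mean CPM, 3 members were lower at 2-fold and 4 at 1.5-fold, and with a limit of 5 CPM these counts were 0 and 1, since fewer genes were then tested. The median log2 ratio of all members was 0.049 with no limit. That of the integrin beta subunits was 0.11 as reported, 0.23 at 5 CPM and -0.11 with no limit, where it changed sign. Total-count scaling shifted all ratios up by about 0.07. The 10 intervals above 0 were 10 in number under each scaling. DESeq2 and upper-quartile scaling left 9 members, not 10, with an interval that included 0, as that of LAMC3 then lay below it. Total-count scaling also left 9, since 21 members, not 22, then passed the expression limit. With the longest transcript as gene length, ITGA3 held 47.4% (wild-type) and 49.5% (knockout) of the alpha level, ITGB1 59.3% and 61% of the beta level, and LAMB1 46.8% of the laminin beta level in the knockout library. In the wild-type library LAMB1 then held 30.3% of it, in place of 26.2%, nearly the same as LAMB3. In all, 64 other summary values and 158 single-gene values moved by less than their counting intervals, or by less than 1.5 times for counts, and 3 moved farther, those of ITGA3 (0.35), ITGB1 (0.30) and ITGB4 (0.07) with total-count scaling. The LAMA4 ratio, run under these alternatives after seeing the data, lay between -3.21 and -3.12 under the scalings and was -2.89 with a prior count of 2. No paired analysis was possible because each genotype had 1 library. Depth limits members with few counts, such as ITGB7 (9 and 1) and ITGAL (1 and 1).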
